A study of Rattus norvegicus with 8 samples.

Results

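The genes described are 34 components, regulators and receptors of the complement system, chosen by name: every probe that is not a control probe and whose gene name equals one of them was taken. Of the 34 genes, 33 had a probe, on 40 probes in all, and 30 passed the background filter and were tested among 14873 genes. All 30 were well above background in all 8 samples, so that none entered through 1 group alone. RNA was measured in the livers of 21-day-old Wistar rats on Agilent 2-colour arrays. The 4 MDD (methyl donor deficiency) animals were born to dams fed a diet without vitamin B12 and folates, and the 4 control animals to dams fed a standard diet. The dams ate their diet from 1 month before pregnancy until weaning. Each array held 1 MDD and 1 control animal in different dyes. MDD 3 and control 1 shared array 1, MDD 1 and control 3 array 2, MDD 4 and control 2 array 3, and MDD 2 and control 4 array 4, and the MDD sample was labelled with Cy3 on arrays 1 and 3 but with Cy5 on arrays 2 and 4. MDD 2, MDD 4 and control 1 were male and the other animals female. The labels do not name dams or litters, so the p-values measure only the spread between these animals, which may include littermates.

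Complement is a cascade of plasma proteins that tags and lyses microbes and clears debris. The classical pathway starts when C1q binds antibody, the lectin pathway when mannose-binding lectins bind sugars, and the alternative pathway amplifies both. All converge on cleavage of C3, followed by assembly of the membrane attack complex from C5 to C9. Hepatocytes make most of these proteins, while C1q is made mainly by macrophages, in liver by Kupffer cells. Bulk tissue was measured, in which fewer cells of a type and less RNA per cell cannot be told apart.

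The probes below, from the deposited files with positions on rn4, are those behind the plasma protein results (C3, Vtn, Mbl1) and the macrophage-made contrast (C1qa, C1qc). The files place the C3 probe on unplaced sequence (chrUn). Exon or UTR annotation of rn4 was not used here.
C3 probe, chrUn:64513437-64513496, minus strand: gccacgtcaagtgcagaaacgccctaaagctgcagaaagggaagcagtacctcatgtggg
Vtn probe, chr10:64611899-64612164, plus strand: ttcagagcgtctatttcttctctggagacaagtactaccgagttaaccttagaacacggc
Mbl1 probe, chr16:17597083-17597142, plus strand: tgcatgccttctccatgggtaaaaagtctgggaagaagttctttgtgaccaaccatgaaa
C1qa probe, chr5:155662578-155662637, minus strand: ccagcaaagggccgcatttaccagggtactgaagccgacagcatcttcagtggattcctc
C1qc probe, chr5:155656638-155656697, minus strand: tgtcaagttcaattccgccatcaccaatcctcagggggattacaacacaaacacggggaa

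The RefSeq promoters below (GRCr8, 250 bases before to 50 after each start) belong to the called hepatocyte-made genes with the smallest p-values among those with an entry, and to C1qa for contrast. Capitals mark matches, on either strand, to 7 motifs: C/EBP (TTNNGNAA), an HNF1 half-site (GTTAAT), STAT (TTCNNNGAA), NF-kB (GGGNNTTCC), HNF4 (CAAAGTCC), the TATA box (TATAAA) and PU.1 (GAGGAAGT). No 2 matches overlap in these 4 promoters.
Mbl2 promoter, chr1:237430793-237431092, plus strand: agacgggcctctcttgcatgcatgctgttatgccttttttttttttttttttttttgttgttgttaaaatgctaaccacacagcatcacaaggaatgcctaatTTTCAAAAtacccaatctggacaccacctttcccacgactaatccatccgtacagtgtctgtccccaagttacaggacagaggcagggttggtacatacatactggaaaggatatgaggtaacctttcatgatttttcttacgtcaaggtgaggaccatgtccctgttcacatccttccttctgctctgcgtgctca
C4bpb promoter, chr13:44683732-44684031, minus strand: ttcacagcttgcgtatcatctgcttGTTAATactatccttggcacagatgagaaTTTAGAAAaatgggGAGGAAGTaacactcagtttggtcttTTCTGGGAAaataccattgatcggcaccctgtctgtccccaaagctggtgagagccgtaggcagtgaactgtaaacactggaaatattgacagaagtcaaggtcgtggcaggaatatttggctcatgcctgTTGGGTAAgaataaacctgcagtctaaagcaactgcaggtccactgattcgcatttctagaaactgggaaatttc
Masp1 promoter, chr11:90839472-90839771, plus strand: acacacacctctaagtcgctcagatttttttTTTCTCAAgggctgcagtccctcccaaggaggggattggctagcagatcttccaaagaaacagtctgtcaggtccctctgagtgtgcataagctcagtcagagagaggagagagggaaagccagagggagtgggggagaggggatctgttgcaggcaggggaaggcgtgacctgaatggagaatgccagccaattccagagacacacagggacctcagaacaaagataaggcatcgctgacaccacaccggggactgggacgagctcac
C1qa promoter, chr5:154419884-154420183, minus strand: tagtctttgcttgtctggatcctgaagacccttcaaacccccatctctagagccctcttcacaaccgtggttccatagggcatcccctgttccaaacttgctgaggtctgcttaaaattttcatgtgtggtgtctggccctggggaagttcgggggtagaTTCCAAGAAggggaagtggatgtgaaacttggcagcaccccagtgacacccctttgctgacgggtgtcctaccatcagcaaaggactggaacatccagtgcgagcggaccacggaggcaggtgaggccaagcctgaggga

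Promoter entries existed for 22 of the 34 genes, 15 of them hepatocyte-made. The C/EBP letters were found in 10 of the 15 hepatocyte-made promoters and in 41.3% of the 33469 promoters of the table. The HNF1 half-site was found in 4 of the 15 and in 7.5% of all promoters, and the STAT letters in 3 of the 15 and in 8.9%. The TATA box was found in 1 of the 15 and in 14.2% of all promoters, the NF-kB letters in 1 and in 5.9%, the PU.1 letters in 1 and in 2.4%, and the HNF4 letters in 0 and in 1.4%. Among the printed promoters, the 2 C/EBP matches of C4bpb start at -196 and -25, its STAT match at -156, its PU.1 match at -182 and its HNF1 half-site at -225. In Mbl2 and Masp1 the only matches were C/EBP letters, at -147 and -219, and in C1qa the only match was STAT letters at -90. These matches describe letters in a window and not binding.

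In MDD livers 10 of the 30 measured complement genes fell and 0 rose. The genes that fell were the lectins Mbl1 and Mbl2 and their protease Masp1, the central component C3, the alternative pathway protease Cfb, the classical genes C1s and C4b, the pore subunit C8a, and the regulators C4bpb and Vtn. Their fitted levels lay between 42.8% (Mbl2) and 74.9% (C4b) of the control level. A gene was called at an adjusted p at or under 0.05 (limma, Benjamini-Hochberg over all genes), by which 6.60% of all genes fell and 4.57% rose (11.2% in either direction). At an unadjusted p under 0.05, 17 members were lower and 0 higher, against 14.8% and 12.8% of all genes. The median log2 difference of the 30 members, MDD minus control, was -0.39, against 0.0095 for all genes, and 23 of the 30 were negative, against 48.2% of all genes. In 10 members all 4 MDD values lay below all 4 control values, as in 5.96% of all genes, and in 1 (C2) all lay above, as in 5.51%. The count rests on some of the arrays: without array 3, 3 members fell (Mbl2, Masp1 and C4bpb), and without control 3, 6 did (Mbl2, Masp1, C3, Cfb, C4bpb and Vtn). With each array taken as a pair of animals (within-array ratios), 7 members fell: Mbl2, Masp1, C3, Cfb, C4bpb, Vtn and C4bpa, while the calls of Mbl1, C1s, C8a and C4b were lost. Without array 3, 210 of all genes were called in either direction, against 1660 with it.

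**Figure D1:**
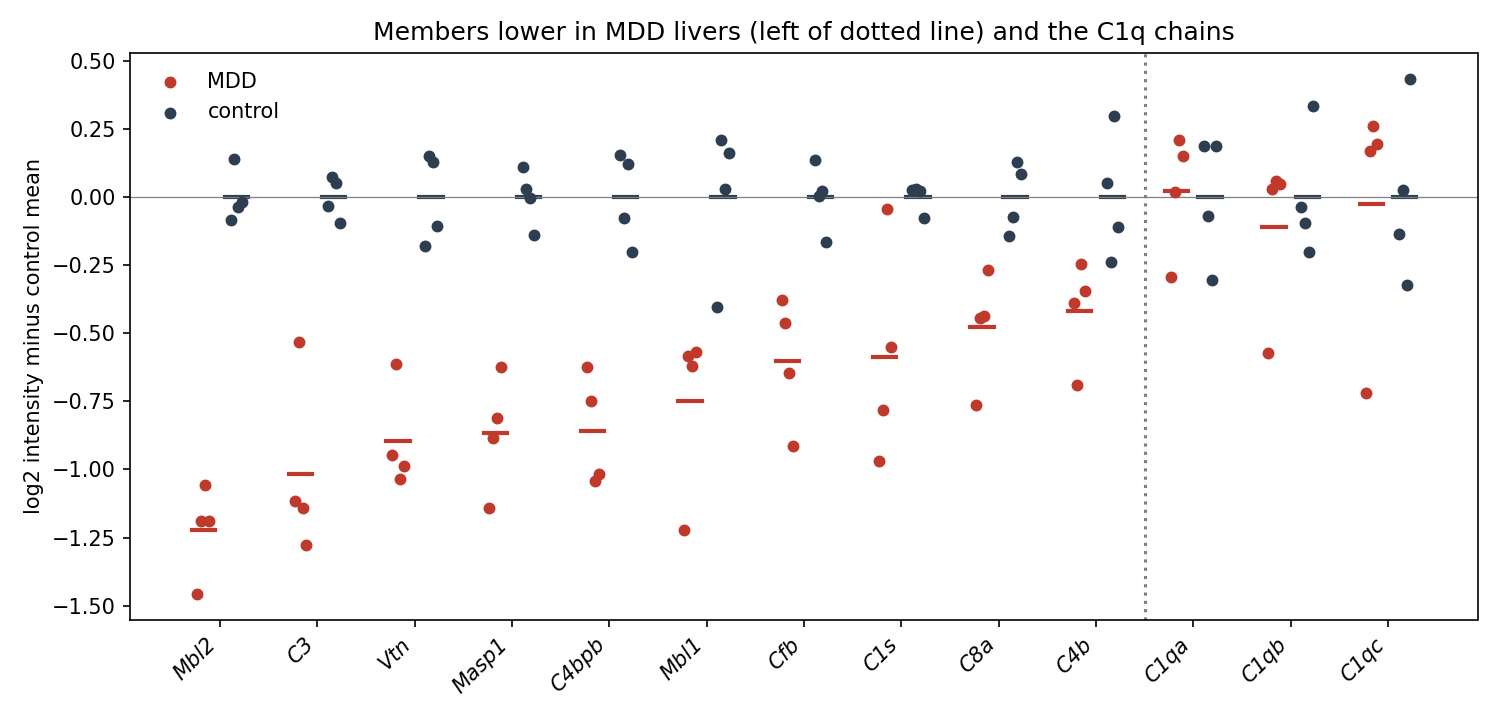
Log2 intensity of each of the 8 samples minus the control mean of the same gene (vertical axis), for the 10 genes that fell and the 3 C1q chains (horizontal axis). Points are animals, red for MDD and dark for control, and bars are group means. The MDD animals lie below all controls in 9 of the 10 genes, C1s being the exception, and the groups overlap for the C1q chains.

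**Figure D2:**
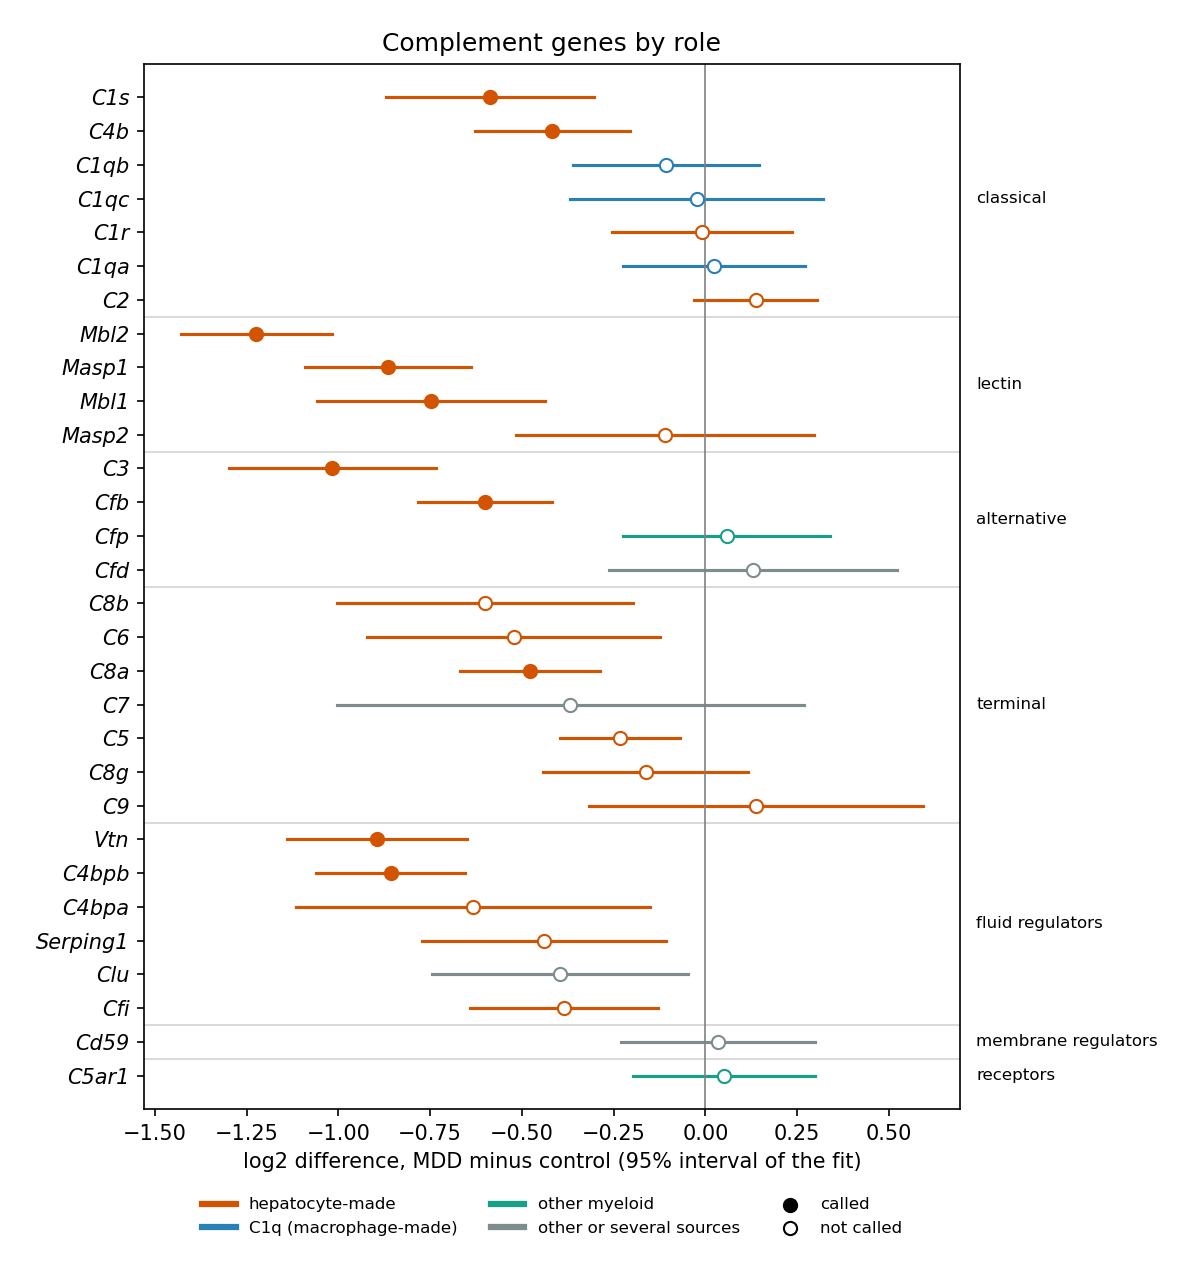
Log2 difference, MDD minus control, of the 30 measured genes by role, with the 95% interval of the fit over 4 animals per group. Filled points were called and colours give the main source. All filled points are hepatocyte-made genes and lie left of 0, from -1.22 for Mbl2 to -0.42 for C4b.

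Of the roles, the lectin pathway had the largest share of genes that fell, 3 of 4, beside 2 of 4 in the alternative pathway. With 1 animal or array left out, 2 to 3 of the lectin genes fell, and the Masp1 call was that of 1 probe. Mbl2 encodes the mannose-binding lectin C, a soluble pattern receptor. Its normalised log2 intensity was 10.59, 10.86, 10.99 and 10.86 in MDD 1 to 4, against 11.96, 12.19, 12.01 and 12.03 in control 1 to 4. The highest MDD animal lay well below the lowest control, with a difference of -1.22 ± 0.09 (SE, n = 4 per group, limma adjusted p = 0.000578). Mbl1, the mannose-binding lectin A, was at 12.11, 12.75, 12.71 and 12.76 in MDD livers, against 12.93, 13.54, 13.36 and 13.49 in control livers. MDD 1 was the lowest animal and control 1 the lowest control, and the groups did not overlap (-0.75 ± 0.14, limma adjusted p = 0.0124). The Mbl1 call was lost with within-array ratios, with no array block, and without MDD 4, control 3 or array 3. Masp1 encodes proteases that associate with these lectins. On its brightest probe it was at 10.83, 11.09, 11.16 and 11.35 in MDD livers, against 12.09, 12.00, 11.97 and 11.84 in control livers (-0.87 ± 0.10, limma adjusted p = 0.00267). Masp2, the protease that cleaves C4 and C2, was at 14.08, 13.43, 14.22 and 14.23 in MDD livers, against 14.37, 14.47, 14.19 and 13.37 in control livers. MDD 2 and control 4 were the low animals, on the same array, and the difference of -0.11 did not pass the test (95% interval from -0.52 to 0.30).

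The Masp1 gene gives several products by alternative splicing, and its 3 probes differed. The brightest, at chr11:79602404-79602463, gave the fall above. The probe at chr11:79599734-79599793 averaged 9.34 in MDD and 9.46 in control livers (-0.11 ± 0.14). The probe at chr11:79556315-79557485 averaged 8.01 in MDD and 7.95 in control livers (0.06 ± 0.15). With the mean of the 3 probes the difference was -0.31 and the call was lost, so the fall is that of 1 probe, and which product each probe detects was not analysed here. The other members with several measured probes were C8a (-0.48 and -0.28), C2 (0.14 and 0.05), C7 (-0.37 and 0.04) and Masp2 (-0.11 and -0.07).

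Both alternative pathway genes of hepatocytes fell, and neither of the other 2 passed the test. C3, whose cleavage all pathways share, was at 16.81, 17.40, 16.79 and 16.65 in MDD livers, against 17.90, 18.00, 17.98 and 17.83 in control livers. The controls lay close together and MDD 2 stood nearest to them (-1.02 ± 0.12, limma adjusted p = 0.00288, 49.4% of the control level). Cfb, the protease of the alternative C3 convertase, was at 16.66, 16.58, 16.39 and 16.12 in MDD livers, against 17.17, 17.04, 17.06 and 16.88 in control livers (-0.60 ± 0.08, limma adjusted p = 0.00439). The C3 and Cfb calls were lost without array 3, where their differences were largest (-1.35 and -0.92). The C8a and C4b calls were also lost without array 3, where their differences were smallest (-0.20 and -0.11). Why these calls were lost was not tested. Cfd, the protease that activates factor B and is known from adipose tissue, was at 12.23, 11.70, 11.73 and 11.81 in MDD livers, against 11.89, 11.71, 11.30 and 12.06 in control livers, with overlapping groups. Cfp, the stabiliser properdin made by myeloid cells, differed by 0.06, with a 95% interval from -0.22 to 0.34.

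In the classical pathway 2 of 7 measured genes fell. C1s, the C1 protease that cleaves C4 and C2, was at 12.01, 12.20, 12.94 and 12.43 in MDD livers, against 13.004, 13.006, 13.002 and 12.90 in control livers (-0.59 ± 0.12, limma adjusted p = 0.0211). MDD 3 lay within the control range, so the groups overlapped. C4b, the component that C1s cleaves, was at 16.15, 15.85, 16.29 and 16.19 in MDD livers, against 16.59, 16.30, 16.84 and 16.43 in control livers (-0.42 ± 0.09, limma adjusted p = 0.0263). MDD 3 and control 2 nearly met, at 16.29 and 16.30. No probe carried the name C4a, and the probe named C4b lists transcripts of both genes, so the 2 cannot be told apart. With sex added to the fit neither C1s nor C4b was called, nor was either with within-array ratios, no array block or no dye term. The C1s call was also lost without MDD 4, control 1, 2 or 3, or array 2 or 3, and the C4b call without any of these, MDD 3 or array 1. The C4b call was lost as well with high-background spots kept, with scanner processed signals and with the deposited normalized intensities. C2, the partner of C4 in the C3 convertase, was at 12.72, 12.74, 12.72 and 12.93 in MDD livers, against 12.67, 12.62, 12.67 and 12.61 in control livers (0.14 ± 0.07, limma adjusted p = 0.268). C1r, the protease that activates C1s, differed by -0.01, with a 95% interval from -0.26 to 0.24. Its sign followed the dye of the MDD sample: its within-array difference was 0.42 and 0.23 on arrays 1 and 3 and -0.37 and -0.32 on arrays 2 and 4. Arrays of each dye orientation held different animals, so dye and animals cannot be told apart here.

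Of the 7 terminal genes 1 fell. C8a, a pore-forming chain of C8, was at 13.35, 13.67, 13.68 and 13.84 in MDD livers, against 13.97, 14.04, 14.24 and 14.20 in control livers (-0.48 ± 0.08, limma adjusted p = 0.0106). Its call was lost with within-array ratios, with no array block, and without control 1, control 3, array 1 or array 3. Its partner C8b was at 12.81, 12.72, 13.64 and 12.90 in MDD livers, against 13.95, 13.89, 13.19 and 13.43 in control livers. MDD 3 lay above 2 of the controls, and the difference of -0.60 ± 0.18 had a limma adjusted p of 0.0641. C6 was at -0.52 (limma adjusted p = 0.0926), C7 at -0.37, C5 at -0.23 and C8g at -0.16. C9, which forms the bulk of the pore, was at 14.65, 15.12, 14.09 and 15.30 in MDD livers, against 14.15, 14.64, 14.93 and 14.90 in control livers. The groups overlapped widely, and the difference of 0.14 had a 95% interval from -0.32 to 0.59. The within-array difference of C5, the source of the anaphylatoxin C5a, was 0.02 and 0.13 on arrays 1 and 3 and -0.55 and -0.52 on arrays 2 and 4. These array pairs differ in the dye of the MDD sample and in the animals, which cannot be told apart. C6 was lower on all 4 arrays, by -0.07 and -0.14 on arrays 1 and 3 and -1.19 and -0.69 on arrays 2 and 4.

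Among the 6 fluid-phase regulators 2 fell and all 6 differences were negative. Vtn encodes vitronectin, which binds the forming pore complex. It was at 16.27, 16.60, 16.18 and 16.23 in MDD livers, against 17.04, 17.37, 17.34 and 17.11 in control livers (-0.89 ± 0.11, limma adjusted p = 0.0028). C4bpb, the beta chain of the C4b-binding protein, was at 15.93, 15.80, 15.51 and 15.54 in MDD livers, against 16.71, 16.48, 16.68 and 16.35 in control livers (-0.86 ± 0.09, limma adjusted p = 0.00188). The Vtn call was lost without array 3. In both genes every MDD animal was below every control, and the C4bpb call held in all 26 alternative settings, as did that of Mbl2. The alpha chain C4bpa was at 14.72, 14.44, 13.55 and 14.89 in MDD livers, against 14.38, 15.36, 15.31 and 15.08 in control livers. Control 1 lay below 3 of the MDD animals, and the difference of -0.63 ± 0.21 had a limma adjusted p of 0.091. Cfi, the protease that inactivates C3b and C4b, was at 15.92, 16.43, 16.15 and 16.18 in MDD livers, against 16.50, 16.53, 16.70 and 16.49 in control livers. Its groups did not overlap, but -0.38 ± 0.11 had a limma adjusted p of 0.0619. Serping1, the C1 inhibitor, was at -0.44 ± 0.15 (limma adjusted p = 0.0892) and Clu, the lytic complex inhibitor clusterin, at -0.40 ± 0.15 (limma adjusted p = 0.134).

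Few membrane regulators and receptors were measured. Cd59, which blocks the pore on host cells, was at 11.34, 11.61, 11.93 and 11.76 in MDD livers, against 11.65, 11.83, 11.62 and 11.41 in control livers (0.03, 95% interval from -0.23 to 0.30). C5ar1, the C5a receptor of myeloid cells, was at 7.75, 8.03, 7.85 and 7.73 in MDD livers, against 7.96, 7.53, 7.58 and 8.08 in control livers (0.05, 95% interval from -0.20 to 0.30). In both the groups overlapped widely. The 2 probes of Cd55 and the probe of Cd46, which encode membrane regulators, were not well above background in any sample. The probe of C3ar1, the C3a receptor, was well above background in 0 MDD and 1 control samples.

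Hepatocyte-made and macrophage-made components, assigned by their textbook source, were then compared. Of 21 measured hepatocyte-made genes 10 fell (47.6%) with a median of -0.52, while of the 3 C1q chains 0 were called. C1qa was at 12.66, 12.97, 13.16 and 13.10 in MDD livers, against 13.14, 12.88, 12.64 and 13.14 in control livers (0.02, 95% interval from -0.22 to 0.27). C1qb was at 13.52, 14.13, 14.15 and 14.14 in MDD livers, against 14.06, 14.00, 13.89 and 14.43 in control livers (-0.11, 95% interval from -0.36 to 0.14). C1qc was at 10.27, 11.15, 11.25 and 11.18 in MDD livers, against 10.85, 11.01, 10.66 and 11.42 in control livers (-0.02, 95% interval from -0.37 to 0.32). MDD 1 was the lowest MDD animal for all 3 chains, and the groups overlapped. The intervals of C1qa, C1qb and C1qc do not reach the differences of Mbl2, C3, Vtn, Masp1, C4bpb or Mbl1. Those genes were picked as the largest falls of the hepatocyte-made set. The differences of the hepatocyte-made C1r (-0.01), C2 (0.14), C9 (0.14), Masp2 (-0.11) and C8g (-0.16) lie inside all 3 intervals.

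The mean difference of the hepatocyte-made genes was -0.50 and that of C1q -0.04, which puts the hepatocyte-made genes lower by -0.464 on the log2 scale (SD over the 4 arrays 0.20). This contrast was -0.57, -0.48, -0.63 and -0.18 on arrays 1 to 4, negative on each. The C1q mean was 0.17 and 0.18 on arrays 1 and 3 and -0.25 on both arrays 2 and 4, so that its sign followed the dye of the MDD sample. Different animals were on the arrays of each dye orientation, so dye and animals cannot be told apart. The hepatocyte-made mean was -0.40, -0.73, -0.45 and -0.42, negative in both dye orientations, with 18, 20, 17 and 17 of 21 genes lower. Within each sample, the hepatocyte-made mean minus the C1q mean was 1.94, 1.54, 1.43 and 1.54 in MDD livers, against 2.0, 2.16, 2.42 and 1.72 in control livers, where MDD 1 lay above control 4. The contrast was given no test, since it is a score over chosen genes. In the fit of all 8 samples no member of another source was called: 0 of 2 other myeloid genes (Cfp, C5ar1) and 0 of 4 genes of other or several sources (C7, Cfd, Cd59, Clu). Clu (-0.40) was called lower in 2 of the 26 alternatives, and Cfd was called higher in 1.

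**Figure D3:**
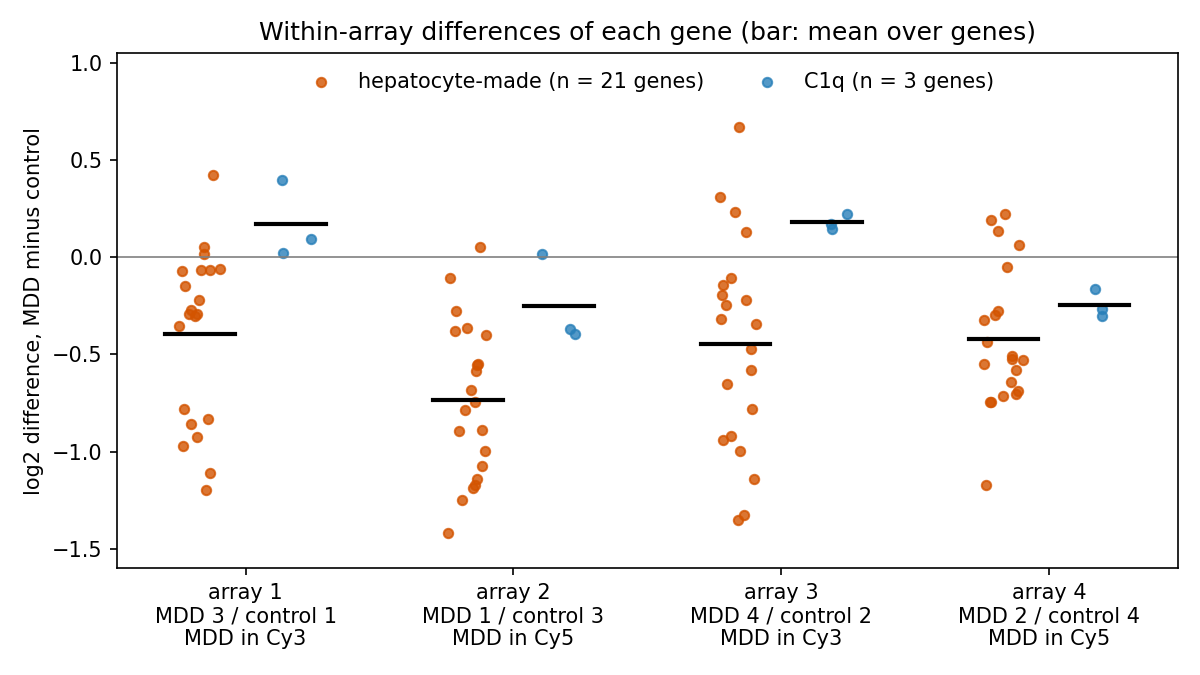
Within-array log2 difference, MDD minus control, of each of 21 hepatocyte-made genes (orange) and the 3 C1q chains (blue) on each of the 4 arrays, with the pair of animals and the MDD dye below. Black bars are means over genes. The orange bars lie at -0.40, -0.73, -0.45 and -0.42, and the blue bars change sign with the dye orientation.

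Kupffer cell and macrophage markers were read beside the C1q result. Of 20 measured, 1 fell (the iron exporter Slc40a1, -0.76) and 2 rose (the lipopolysaccharide co-receptor Cd14, 1.38, and the scavenger receptor Msr1, 0.48), with a median of -0.06. Their mean log2 level was between 10.22 and 10.88 in MDD livers and between 10.43 and 10.93 in control livers. As with C1q, MDD 1 was the lowest animal and control 4 the highest. Of the 10 hepatocyte markers, all measured, 3 fell (Ttr, Tdo2 and Serpina1) and 1 rose (Ass1), with a median of -0.37. At an unadjusted limma p under 0.05, 6 hepatocyte markers were lower and 3 higher. Their mean level was between 13.86 and 14.31 in MDD livers and between 14.18 and 14.57 in control livers. Ttr and Serpina1 are counted again among the other plasma proteins of hepatocytes below. Markers of other cells differed in how many were called. Of 6 measured neutrophil markers 5 fell, with a list mean between 7.65 and 8.18 in MDD livers and between 8.35 and 9.18 in control livers. Without control 1, 2 or 3, or array 1, 2 or 3, between 2 and 3 of these neutrophil markers fell. Of the 12 neutrophil markers listed, 6 gave no measured value, Elane, Csf3r and Cxcr2 among them. The mean of 4 measured muscle markers was 10.65 in MDD 3, between 8.49 and 8.61 in the other MDD livers and between 7.69 and 8.09 in control livers. Of these 4, Tnnc2 rose (2.85), and the other 3 did not pass the test. By limma 0 of 9 endothelial and 0 of 4 cholangiocyte markers were called, with 2 and 1 lower at an unadjusted p under 0.05. Of 12 stellate cell markers 1 fell (Lrat), of 6 lymphocyte markers 1 fell (Cd3g), and of 4 adipose markers 1 fell and 1 rose. Of 6 erythroid markers 1 rose (Tfrc), but the other 5 differences were negative, with a list median of -0.46. By limma 2 of these erythroid markers were lower at an unadjusted p under 0.05. With 1 animal or array left out, 0 to 2 of the macrophage markers fell and 1 to 2 rose. The part of these cells in the complement results was not tested.

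Members that lie close together in the genome were compared in pairs. The files place 7 pairs of members within 100000 bases on rn4, and this comparison was chosen after their values were seen. C1r and C1s lie on chromosome 4 with probes 8095 bases apart, and their differences of -0.01 and -0.59 were 0.58 apart. C2 and Cfb lie on chromosome 20 with probes 6239 bases apart, and their differences of 0.14 and -0.60 were 0.74 apart. Each gave a two-sided exact permutation p of 0.0286, the smallest that 4 against 4 animals allow, and 0.1 after adjustment over the 7 pairs. The diet labels were permuted freely over all animals, so this test kept neither the pairing of animals on the arrays nor the dye. With 2 pairs at that smallest p the adjusted value could not be lower, so these adjusted values say nothing of whether the neighbours differ. On each of the 4 arrays the difference was lower for C1s than for C1r, and lower for Cfb than for C2. The other 5 pairs, among them C4bpa with C4bpb and C8a with C8b, had an exact permutation p of 0.229 or more.

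Of 20 other measured genes of the complement system, from a list chosen with earlier results known, 6 fell and 0 rose, with a median of -0.35. Those that fell included the pentraxins Crp (-1.12) and Apcs (-0.66), which bind C1q, the C4b-binding protein partner Pros1 (-0.52) and the ficolin Fcna (-0.42). This list was not split by source, so hepatocyte-made and macrophage-made genes were not compared within it. Crp averaged 7.83 in MDD and 8.94 in control livers (SE of the difference 0.18, n = 4 each, limma adjusted p = 0.00767). Without array 3, 0 of these genes fell, and without MDD 4, control 1, 2, 3 or 4, array 1 or array 2, between 1 and 3 did.

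Other secreted liver proteins were read beside complement. Of 47 other plasma proteins of hepatocytes 20 fell and 2 rose with a median of -0.50, near that of the hepatocyte-made complement genes. The 4 with the smallest p were the apolipoproteins Apoa2 (1.86) and Apoa4 (-1.69), the plasma glycoprotein Hrg (-1.51) and the fetuin Fetub (-1.19). Acute phase genes share Crp and Apcs with the other complement genes and Cd14 with the macrophage markers. Of the 21 acute phase genes measured 13 fell while 3 rose (median -0.66), including Cp (-1.05), Fgb (-0.74), Mt2A (2.50) and Cd14 (1.38). Of 23 regulators of secreted liver genes 3 fell, the interleukin-6 receptor chains Il6r (-0.61) and Il6st (-0.43) and the bile acid receptor Nr1h4 (-0.82), and 1 rose, the interleukin-1 receptor Il1r1 (0.68). Without array 3, 3 plasma proteins, 3 acute phase genes and 0 regulators fell. Without MDD 4, control 2 or control 3, between 8 and 11 plasma proteins fell, and without these or control 1, between 6 and 8 acute phase genes. The regulator calls were few and moved with most animals left out, from 0 to 7 lower and 0 to 1 higher.

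**Figure D4:**
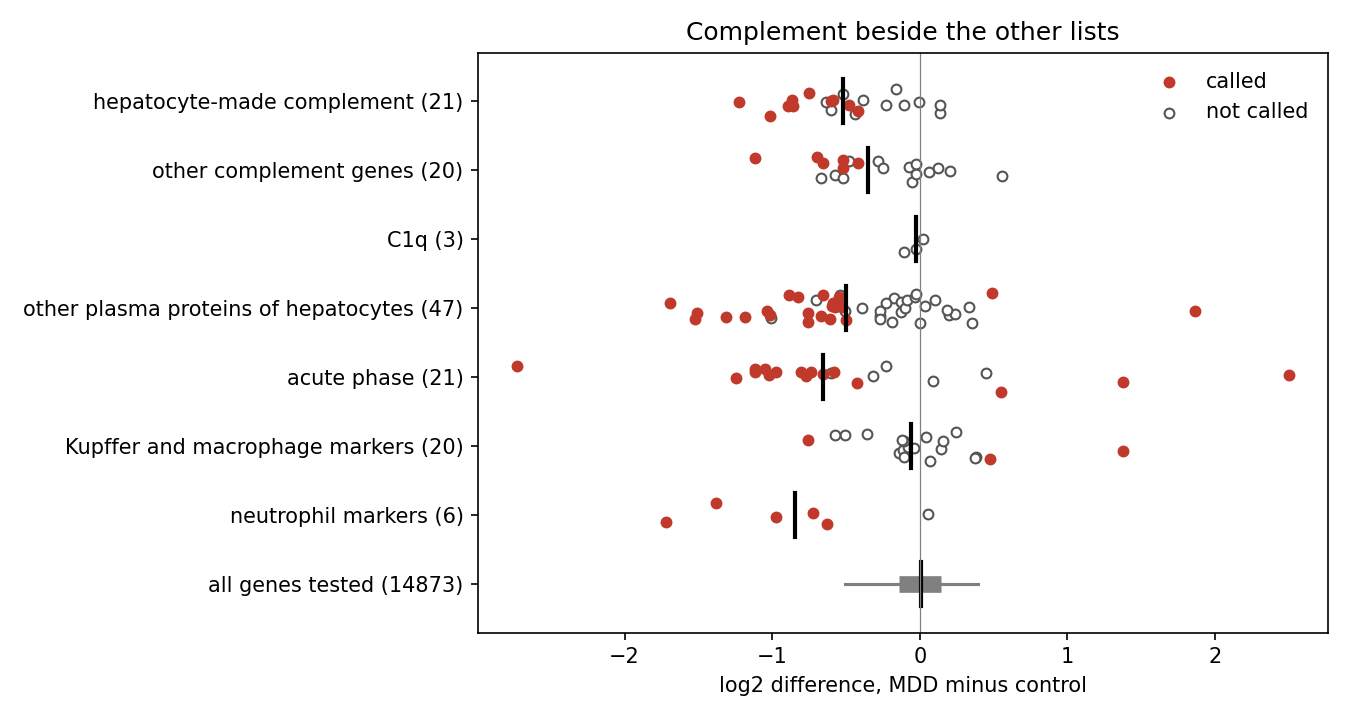
Log2 difference, MDD minus control, of each measured gene (points, red where called) in 7 lists, with the list's median as a black bar and the number measured in brackets. The grey box and line at the bottom give the 25th to 75th and the 5th to 95th percentile of all 14873 genes. The medians are -0.52 for hepatocyte-made complement, -0.50 for other plasma proteins and -0.06 for Kupffer cell and macrophage markers.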

How the data were processed

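RNA from 8 livers was measured on 4 Agilent 2-colour arrays of 1 slide. The deposited scanner files hold linear spot intensities that, per the file headers, came from version 10.7.1.1 of Agilent Feature Extraction. No source used here says how the deposited table of normalized intensities was made, and it served only as an alternative. Median signals per sample were 152.5 to 299.0 over backgrounds of 33 to 58, 59.1% to 65.5% of spots were well above background, 0 were saturated, and the number of arrays limits the precision.

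Signals were corrected in limma 3.58.1 (R 4.3.3) with normexp (offset 50) after leaving out 74 spot values whose local background was over 5 times their channel's median, a step taken over from earlier work on these data that knew the results. Loess within arrays and Aquantile between arrays followed. Outlier and 1377 control spots were left out, spots of a probe averaged, probes kept if well above background in at least 4 of 8 samples, and the brightest probe used per gene. Diet and dye were fitted with the array as a random block (correlation 0.421). Intervals are 95% intervals of this fit. The script was tested on simulated data. Replicate numbers follow the sample order and pair no animals.

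The genes, lists and tests were chosen with earlier results of these data known. All members were described, with every sample's value for those called, the C1q chains and the extremes of each role. Of each other list up to 4 genes by smallest p were named, and Fcna was named beyond these after its value was seen. One gene that this rule would name is not reported here. The 26 alternatives covered background, normalization, filter, probe choice, dye, array, sex and leaving out animals or arrays.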

Additional observations from a re-analysis of the deposited data

Results flagged for a closer look

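Dixon's test sets the gap between a sample and the next against the range of its group, so a small gap can be flagged. Of 60 groups of 4 values, 30 genes in each diet group, 6 held a flagged sample. About 1 in 20 such groups, here 3, is expected by chance. MDD 1 was the low animal in 4 of the 6 flagged groups. C1qb was at 13.52 in MDD 1 and between 14.13 and 14.15 in the other MDD livers. C1qc was at 10.27 in MDD 1, with the others between 11.15 and 11.25. Mbl1 was at 12.11 in MDD 1, with the others between 12.71 and 12.76, and its call held without this animal. Clu was at 13.88 in MDD 1, with the others between 14.58 and 14.68. C2 was at 12.93 in MDD 4, with the other MDD livers between 12.72 and 12.74. C1s was at 12.9 in control 4, with the other controls between 13.002 and 13.006.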

How the results depend on the processing

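No called difference changed direction in 26 alternatives. The calls of Mbl2 and C4bpb held in 26 of 26, those of Masp1, C3, Cfb and Vtn in 25, Mbl1 in 21, C8a in 20, C1s in 16 and C4b in 11. Of 30 members, 6 fell with no array block and 3 without array 3, and leaving out 1 animal gave 6 (without control 3) to 15 (without MDD 2). 1 member rose with sample weights (C2, 0.20) and 1 without array 4 (Cfd, 0.45). The hepatocyte-made minus C1q difference stayed between -0.583 and -0.325. Genes called in all were 1660, against 400 with no array block, 838 with no dye term, 4062 with sample weights, 824 with sex added, 954 with high-background spots kept, 467 with within-array ratios, 911 without array 2, 210 without array 3, 2880 without array 4, and 383 to 3548 with 1 animal left out. The cause was not tested. Where the array correlation could not be estimated with few samples, that of the 8 samples was used. Replicate numbers follow the sample order and pair no animals. The arrays do pair them, and within-array ratios called 7 members lower.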
